A study of Arabidopsis thaliana with 6 samples.

Results

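Genes for secreted proteins that are known to be expressed together with secondary wall synthesis were examined in Arabidopsis suspension cells in which the transcription factor VND1 was induced. The group holds 6 genes, chosen by locus: AT5G40020 (thaumatin-like), AT5G09480 (proline-rich), AT2G03200 (aspartyl protease), AT3G62020 (germin-like), AT1G54790 (GDSL esterase) and AT4G28380 (leucine-rich repeat extensin-like). A probe was paired with 3 of the 6 in the array's annotation, namely AT5G40020, AT5G09480 and AT2G03200, out of 16548 genes with a named probe. The other 3 were not analysed here. The genes were picked with the induced against uninduced values of these same arrays in view, so their values in that comparison are given as a description and carry no test.

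All cells were a cultured suspension of Arabidopsis thaliana transformed with an estrogen-inducible VND1-GFP construct, grown at 23 °C in the dark on a rotary shaker at 124 rpm. The induced group (3 arrays) had 5 µM estrogen for 24 h, and the uninduced group (3 arrays) was cultured for the same 24 h with no estrogen. The comparison asks which genes lie downstream of VND1. Both groups carry the construct, and no transformed culture without it received estrogen, so VND1 activity and a response to estrogen itself cannot be told apart. Whether the replicates came from separate cultures is not stated in the labels, so the p-values below measure no more than the variation among the 6 samples, and this may be technical. The arrays fall into a run of 2 array numbers (1 array per group) and a run of 4 (2 per group), and array medians were 5.41 to 5.55 in the run of 4 and 6.15 and 6.08 in the run of 2. All values are log2 expression values, 1 per probe and array.

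VND1 is a NAC-domain transcription factor of the family that switches on vessel element differentiation in xylem. Such cells lay down a thick secondary wall of cellulose, xylan and lignin, and many enzymes and structural proteins are secreted into that wall before the cell dies. Thaumatin-like proteins share the fold of the plant defence protein family PR-5 and are mostly exported to the wall or the vacuole. Proline-rich proteins are structural components of walls. Aspartyl proteases are pepsin-like enzymes, many of which enter the secretory pathway.

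The 3 measured genes were all higher in induced cells, by very different amounts: about 113-fold for AT5G40020, 26.1-fold for AT5G09480 and 3.24-fold for AT2G03200. The thaumatin-like and proline-rich genes had low values without estrogen, while the aspartyl protease gene already had a high value in uninduced cells. In total RNA of a culture, more cells that express a gene and more RNA per cell cannot be told apart.

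AT5G40020, the thaumatin-like gene, had log2 values of 9.93, 9.68 and 9.69 on the induced arrays, against 3.18, 2.60 and 3.06 on the uninduced arrays. The groups lay far apart, with 6.50 log2 units between the lowest induced and the highest uninduced array. The means were 9.77 ± 0.14 in induced cells and 2.95 ± 0.31 in uninduced cells (SD, n = 3 each), a difference of 6.82 ± 0.20 (moderated SE). This was the 4th largest positive difference among the 38408 probes and the 2nd largest among the named genes. Each uninduced value stood only 0.06, 0.18 and 0.59 above the 5th percentile of its own array (3.12, 2.42 and 2.47). Background was not measured separately, so if these uninduced values are background, the fold change is a lower bound.

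AT5G09480, the proline-rich gene, had log2 values of 9.00, 8.55 and 8.83 on the induced arrays, against 4.86, 3.98 and 3.42 on the uninduced arrays. The groups did not overlap and were 3.69 apart at their nearest arrays, but the induced arrays spread over only 0.44 log2 units and the uninduced arrays over 1.44. The means were 8.79 ± 0.22 in induced cells and 4.09 ± 0.73 in uninduced cells (SD, n = 3 each), and the difference was 4.70 ± 0.39 (moderated SE). The highest uninduced value belonged to the array of the run of 2, whose median was also higher. Measured from each array's own median, the induced values were 2.85, 3.14 and 3.37 and the uninduced ones -1.22, -1.50 and -2.12. The uninduced values stood 1.74, 1.56 and 0.96 above the 5th percentile of their own arrays. If they are partly background, the fold change of AT5G09480 is a lower bound as well.

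AT2G03200, the aspartyl protease gene, had log2 values of 11.32, 11.09 and 11.05 on the induced arrays, against 9.59, 9.38 and 9.40 on the uninduced arrays. Values were close together within each group, and the nearest arrays of the groups were 1.46 apart. The means were 11.15 ± 0.15 in induced cells and 9.46 ± 0.12 in uninduced cells (SD, n = 3 each), a difference of 1.70 ± 0.14 (moderated SE). Unlike the other two, this gene's uninduced values lay 6.47 to 6.96 above the 5th percentile of their arrays.

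**Figure D1:**
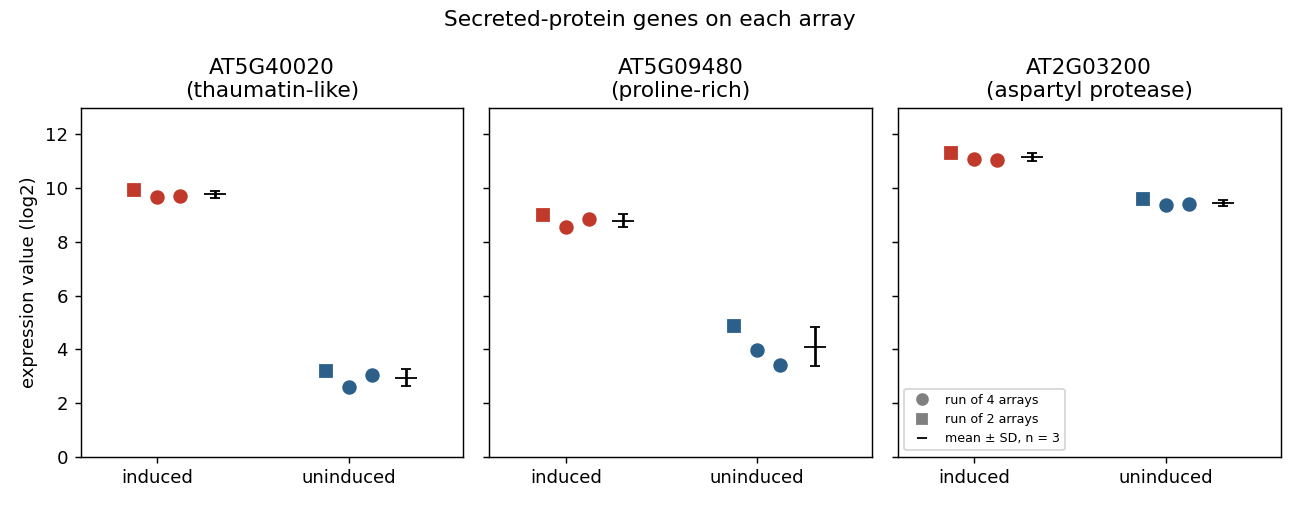
Log2 expression value of each measured gene on the 3 induced and 3 uninduced arrays; circles are the run of 4 arrays, squares the run of 2, and the black marks give the mean and SD (n = 3). The induced arrays lie above the uninduced ones for each gene, with the smallest separation for AT2G03200 and the widest spread for AT5G09480 in uninduced cells.

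The median difference over the 3 genes was 4.70, against -0.02 over all probes and -0.0040 over all named genes. All 3 were among the 205 of 38408 probes (0.534%) called higher in induced cells by limma at a Benjamini-Hochberg adjusted p under 0.05, a count that follows from how the genes were picked. With single arrays omitted, AT5G40020 kept its call in 6 of 6 cases, AT5G09480 in 2 and AT2G03200 in 1. Over all probes, the number called higher in those omissions was 56 to 154. Complete separation with the induced arrays on top, which held for all 3 genes, was found for 5.7% of the probes.

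The size of the differences was next compared between the runs, a contrast on which the genes had not been picked. The difference for AT5G40020 was 6.86 in the run of 4 arrays and 6.74 in the run of 2, and that for AT2G03200 was 1.68 in the run of 4 and 1.73 in the run of 2. AT5G09480 gave 4.99 (31.8-fold) in the run of 4 and 4.13 (17.5-fold) in the run of 2. The test of this change between runs (limma interaction, run of 4 minus run of 2) gave 0.86 ± 0.43 for AT5G09480 (SE, adjusted p = 0.873), 0.11 ± 0.33 for AT5G40020 (adjusted p = 0.988) and -0.06 ± 0.16 for AT2G03200 (adjusted p = 0.989). By limma, 0 of the 38408 probes (0%) passed for the interaction, also with a variance trend and robust estimation, and 2373 (6.18%) had an unadjusted p under 0.05. With a single array per group in the run of 2, this fit has 2 residual degrees of freedom.

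In overall level, the run of 4 minus the run of 2 was -0.73 ± 0.27 (SE) for AT5G09480, -0.30 ± 0.15 for AT5G40020 and -0.23 ± 0.08 for AT2G03200. None of the 3 passed the test of this level (limma adjusted p of 0.0940, 0.176 and 0.0805). Of all probes 37.4% passed in that test, and the median change over probes was -0.42.

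**Figure D2:**
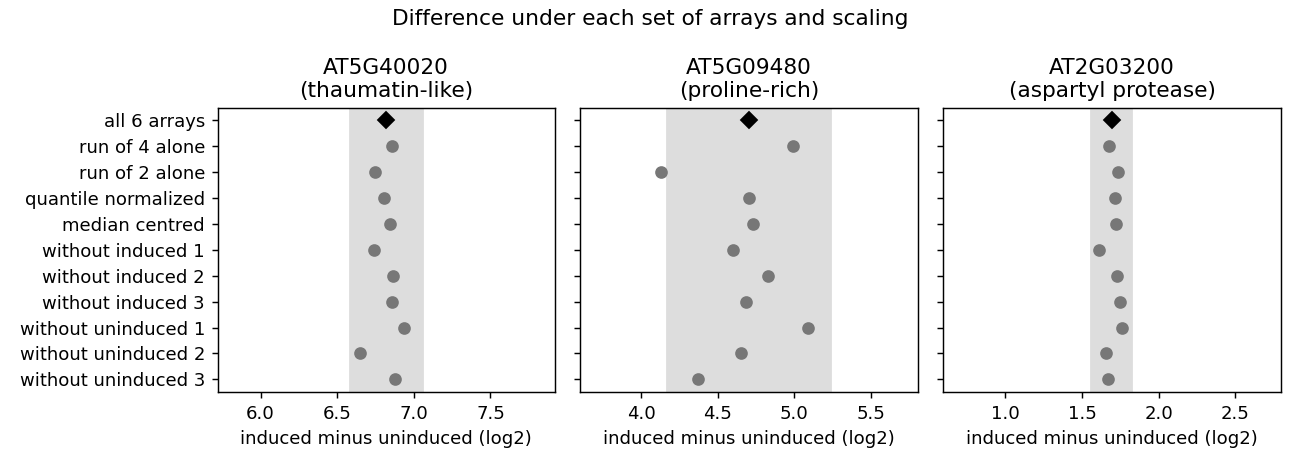
Induced minus uninduced difference (log2) of each gene for all 6 arrays (diamond), for each run alone, after 2 other scalings and without each array; the grey band is the difference from all 6 arrays ± the pooled SD within groups. AT5G09480 in the run of 2 arrays alone, at 4.13, is the point outside its band.

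The wider families were then examined. Few genes related to the 6 could be found by name: 5 of 54 were measured, 4 of them proline-rich and 1 a GDSL lipase. In that set 0 were called higher and 0 lower by limma, where 0.534% of all probes were called higher and 0% lower, so a count of 0 among 5 is near that background. At an unadjusted p under 0.05, limma gave 1151 probes higher and 1053 lower. The proline-rich AT5G19800 differed by 0.32 ± 0.23 (SE) and the hydroxyproline-rich glycoprotein gene HRGP1 by -0.07 ± 0.50, while the GDSL gene AT1G54010 differed by 0.13 ± 0.13. The 4 measured genes found by the term proline-rich had differences of -0.07 to 0.32. They were matched by name alone, and how closely they are related to AT5G09480 was not tested.

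For the aspartic proteases and thaumatin-like proteins, lists of loci were written from general knowledge after the annotation had been seen. Of 68 listed aspartic protease genes other than AT2G03200, 61 were measured. Among these 2 rose and 0 fell, and the other 59 missed the threshold (0.534% of all probes were called higher and 0% lower). Their median difference was 0.06, and 56 of the 61 lay within 0.5 log2 units of 0.

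AT3G51360, an aspartic protease gene, differed most among them, with log2 values of 7.32, 7.13 and 7.38 in induced cells against 5.71, 5.26 and 5.38 in uninduced cells. It rose by 1.82 ± 0.17 (SE, limma adjusted p = 0.0194), next to 1.70 for AT2G03200. The listed genes whose locus numbers precede it, AT3G51330, AT3G51340 and AT3G51350, were chosen after their values were seen and differed by 0.22 ± 0.18, 0.28 ± 0.39 and -0.24 ± 0.22 (SE). AT4G04460 had log2 values of 6.89, 6.83 and 6.81 in induced cells against 5.78, 5.55 and 5.83 in uninduced cells, and rose by 1.12 ± 0.13 (adjusted p = 0.0429). Omitting single arrays ended the call of AT3G51360 in 5 of 6 cases, all but uninduced replicate 1, with limma adjusted p reaching 0.152, and the 4 arrays of the larger run by themselves gave 0.0620. AT4G04460 lost its call with any array omitted (adjusted p reaching 0.278), with the larger run by itself (0.153), after centring (0.275) and after quantile normalization (0.119). With the run as a block 3 relatives were called, AT5G22850 being the third, which was named after its values were seen. It had log2 values of 9.85, 9.66 and 9.65 in induced cells against 8.99, 8.97 and 8.93 in uninduced cells, a difference of 0.76 ± 0.12 (SE). Its adjusted p was 0.139 without the block, 0.0359 with it, 0.00868 with trend and robust estimation and 0.0393 after quantile normalization.

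Of 20 listed thaumatin-like genes other than AT5G40020, 17 were measured, and limma called 0 higher and 0 lower, a count near the background of 0.534% and 0% over all probes. Their differences ran from -0.25 to 0.27 with a median of -0.02. AT5G24620 and AT1G75800 gave the largest, at 0.27 ± 0.14 and 0.27 ± 0.15 (SE). OSM34, the osmotin gene and a well-known member of the family, was chosen after its values were seen. It had log2 values of 12.77, 12.55 and 12.60 in induced cells against 12.65, 12.50 and 12.50 in uninduced cells, so the groups overlapped. The thaumatin-like gene AT5G40020 differed by 6.82 where its measured relatives differed by at most 0.27. Since AT5G40020 was picked with this comparison in view, that gap follows in part from the choice.

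**Figure D3:**
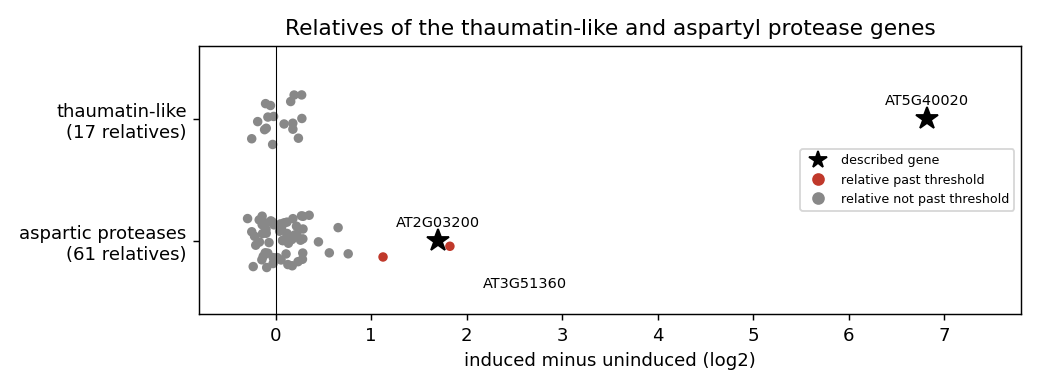
Induced minus uninduced difference (log2) of each measured thaumatin-like and aspartic protease gene; stars are AT5G40020 and AT2G03200, red points are relatives past the limma threshold and grey points relatives that are not (vertical scatter only separates points). The 17 thaumatin-like relatives lie between -0.25 and 0.27, and AT3G51360 and AT4G04460 lie near AT2G03200.

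Genes next to the 3 on the chromosome were looked at as well, 2 protein-coding genes on each side in the gene table. Of these 12 neighbours 8 were measured, and limma called 0 higher and 0 lower, a count near the background of 0.534% and 0% over all probes. Their differences lay between -0.24 (AT5G40000) and 0.59 (AT5G09460, SE 0.21), which were named after their values were seen. AT5G40030, beside AT5G40020, differed by 0.06 ± 0.26, and AT5G09490, beside AT5G09480, by 0.17 ± 0.23 (SE).

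Other genes of secondary wall formation gave the setting for these values. These genes come from lists written with earlier results of these arrays known, several of them for their rise, so the counts are no independent evidence of direction. Of 22 listed genes for other proteins of the wall or apoplast (pectin-degrading enzymes, peroxidases, laccases, cupredoxins and proteases), 11 were measured. There were 9 that rose, 0 that fell and 2 that missed the threshold (0.534% of all probes were called higher and 0% lower). Their median difference was 4.58. AT1G70500, a predicted polygalacturonase, had the largest difference of that list at 7.63 ± 0.24, followed by the class III peroxidase gene AT5G51890 at 5.64 ± 0.33, the cupredoxin gene AT3G27200 at 4.93 ± 0.44 and the peroxidase gene AT1G71695 at 4.91 ± 0.21 (SE). Of 41 other secondary wall genes, mostly for Golgi enzymes and regulators, 10 were measured. Here 7 rose, 0 fell and 3 missed the threshold, and the median difference was 3.04. TBL33, a xylan acetyltransferase, led that list at 5.04 ± 0.26, ahead of AT5G60720 (4.49 ± 0.19), AT1G09440 (3.77 ± 0.59, adjusted p = 0.121) and AT1G63520 (3.75 ± 0.27). AT1G09440 passed with the run as a block (limma adjusted p = 0.0171), in the larger run by itself (0.0163), with trend and robust estimation (0.0335), after quantile normalization (0.00879) and after centring (0.00276). AT1G63520 missed the threshold in the larger run by itself (adjusted p = 0.0809) and in 4 of the 6 omissions of an array (adjusted p reaching 0.0775). AT3G27200 missed it in 5 of those omissions (adjusted p reaching 0.122). AT5G40020 lay between AT1G70500 and AT5G51890, AT5G09480 within the main body of the secreted list, and AT2G03200 near its low end.

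Left out in turn, induced replicates 1, 2 and 3 and uninduced replicates 2 and 3 each gave 5 genes called higher in the list of wall and apoplast proteins. The same omissions gave 3 or 4 in the other list (4 without induced replicate 1 or uninduced replicate 3).

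**Figure D4:**
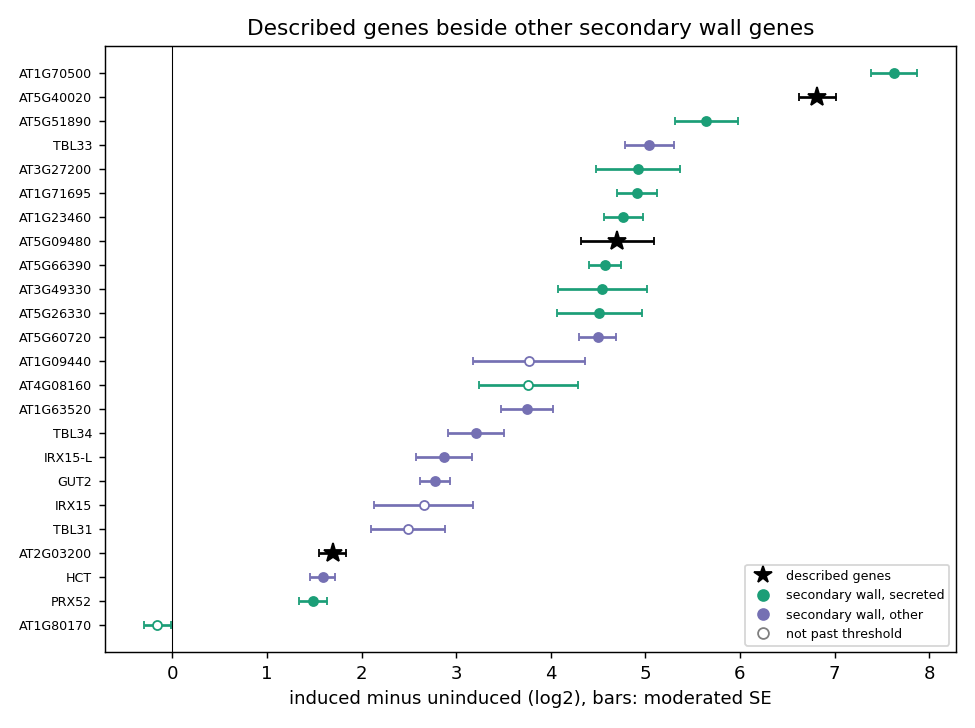
Induced minus uninduced difference (log2) with its moderated SE for the 3 genes (stars) and the measured genes of the 2 secondary wall lists (circles, open where not past the limma threshold). The stars lie at 6.82, 4.70 and 1.70, within the range of -0.16 to 7.63 spanned by the circles.

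Markers of other cell types showed small differences. They were measured for 2 of 5 phloem genes, 1 of 6 photosynthesis genes and 1 of 5 epidermis and root hair genes, while those of the endodermis were not analysed here. OPS of the phloem differed by 0.20 ± 0.16, RCA of photosynthesis by 0.10 ± 0.35 and the root hair expansin EXPA7 by 0.26 ± 0.29 (SE). RCA and EXPA7 had values below the median of each array. Limma called 0 of the 4 higher or lower, near the background of 0.534% and 0% over all probes. With so few measured markers, the kind of cells in the culture was not resolved further.

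Likeness between genes was described by the root mean square distance between profiles, each profile being the 6 log2 values minus their mean, over 16545 other named genes. The nearest genes to AT5G40020 were AT1G70500 at a distance of 0.44, AT1G10800 at 0.70 and AT5G51890 at 0.78. AT5G40020 had the 2nd largest positive difference of the named genes, so few genes could lie near it on this measure. AT5G09480 had near matches, with the cupredoxin gene AT5G26330 at 0.15, the cupredoxin gene AT3G27200 at 0.28 and TBL33 at 0.29. AT5G26330 had log2 values of 10.06, 9.46 and 9.75 in induced cells against 6.20, 4.96 and 4.58 in uninduced cells. As for AT5G09480, its highest uninduced value was on the array of the run of 2. That array's 5th percentile was also higher (3.12 against 2.42 and 2.47). Within the run of 4, AT5G09480 had uninduced values of 3.98 and 3.42, in the opposite order to those percentiles. Whether the scale of the arrays accounts for the uneven uninduced values was not tested. AT3G27200 had uninduced values in the same order as AT5G09480 (4.77, 3.43 and 3.40). Both cupredoxin genes were picked as near profiles on these same 6 arrays, so a similar order follows largely from that choice.

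AT2G03200 had the closest matches, scpl20 (AT4G12910, serine carboxypeptidase-like) at 0.06, AT4G38950 at 0.08 and HCT, an enzyme of lignin monomer synthesis, at 0.08. The serine carboxypeptidase-like gene scpl20 had log2 values of 9.65, 9.40 and 9.48 in induced cells against 7.86, 7.77 and 7.83 in uninduced cells, a difference of 1.69 next to 1.70 for AT2G03200. Among themselves the 3 genes were less alike, at 1.13 between AT5G40020 and AT5G09480, 1.55 between AT5G09480 and AT2G03200, and 2.57 between AT5G40020 and AT2G03200. Of the 9 nearest genes 6 are in the secondary wall lists, which hold 11 and 10 measured genes. All 9 were called higher by limma, where 0.534% of all probes were. Since the lists were written with earlier results of these arrays known, this overlap is no independent evidence of shared expression. With 6 arrays in 2 groups the distance reflects mainly the size of the difference between groups, so this is a description of likeness on these arrays.

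**Figure D5:**
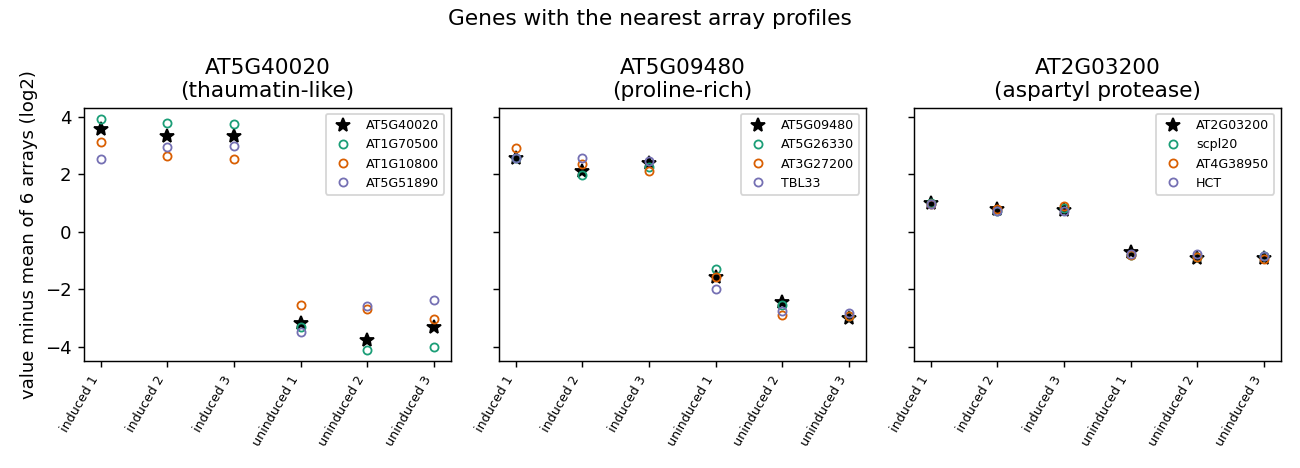
Log2 value minus the mean of the 6 arrays for each gene (star) and its 3 nearest genes (circles), by array. The circles lie on the star for AT2G03200 (distances up to 0.08) and scatter around it for AT5G40020 (0.44 to 0.78).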

How the data were processed

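Total RNA of 6 samples was measured on Affymetrix AraGene arrays, following the sample labels. The authors made the deposited log2 values with Affymetrix Expression Console (version 1.3, per the submitters' processing notes), with 1 summarised value for each probe on each array. The log2 scale was inferred from values between 0.30 and 14.05. The log base, probe summary, background correction and normalization were not given in the sources used here, and no further normalization was applied. The number of arrays limits the precision.

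Probes were named by gene identifier through the platform annotation and a RefSeq gene table (TAIR10.1). Of 38408 probes, 16722 had 1 gene, 759 several and 20927 none. Each measured gene of the group had 1 probe, so averaging probes changed nothing. The probe build and sequences were not used here, and no coordinates are given.

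limma 3.58.1 (R 4.3.3, lmFit and eBayes) compared groups over all probes with Benjamini-Hochberg adjustment. Runs were cut at a gap of over 5 in array numbers. Replicate numbers follow deposition order and pair nothing. The fit was tested on simulated data. The members and lists were chosen with earlier results of these data known. Because the gene table holds no descriptions, families were found by symbol and synonym (for germins by "germin-like" instead of the planned "germin", which also matched germination genes), and the aspartic protease and thaumatin-like lists were added later. Named were all measured members, up to 3 called relatives per family (otherwise the 2 with the largest difference), up to 4 genes per secondary wall list and the 3 nearest profiles. Likeness on uncentred values is not printed, since levels of different probes are not comparable. Alternatives were quantile normalization, median centring, the run as a block or the run of 4 alone, trend and robust estimation, a filter that drops the dimmest 25% of probes by mean, and omission of each array.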

Additional observations from a re-analysis of the deposited data

How the results depend on the processing

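The differences of the 3 genes kept their direction under every scaling and omission run. All induced arrays lay above all uninduced ones for these genes, so no omission of an array could reverse that direction. Of 168 alternative values over all results, 148 stayed within the replicate spread or within 1.5 times the count. Another 2 moved out of the spread and 18 counts were weaker. The 148 include many counts of 0 that stayed 0. All 18 weaker counts are calls among the aspartic proteases and the 2 secondary wall lists. The difference of AT5G09480, which is also the median over the 3 genes, was 4.13 in the run of 2 arrays alone, an alternative chosen after seeing the data. Leaving out each array gave 6.65 to 6.94 for AT5G40020, 4.37 to 5.09 for AT5G09480 and for the median, and 1.61 to 1.76 for AT2G03200. The run as a block leaves these differences as they are, because each run holds as many induced as uninduced arrays, and narrows their SEs to 0.14, 0.26 and 0.08. Called aspartic protease relatives numbered 3 with the run as a block and with trend and robust estimation, 1 after centring, 0 in the run of 4 alone and 0 to 1 without each array, against 2 with all arrays. Genes called higher without each array numbered 5 to 9 in the list of wall and apoplast proteins and 3 to 9 among the other secondary wall genes. Over all probes, 381 were called higher with the run as a block, 351 with trend and robust estimation, 318 after quantile normalization and 140 in the run of 4 alone, against 205; leaving out arrays means fewer samples, and for the other settings the cause was not tested. No paired analysis was possible because the labels give no replicate numbers. Without control probes, how far the low uninduced values of AT5G40020 and AT5G09480 exceed background could not be measured.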
